A study of Mus musculus with 12 samples.

Results

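The replication-dependent histone genes encode the linker histone H1 and the core histones H2A, H2B, H3 and H4 that package newly made DNA. They were taken as the protein-coding genes in RefSeq (GRCm38, the build also called mm10) with symbols of H2ac, H2bc, H3c or H4c followed by digits, and H1f1 to H1f6. This gave 63 of 21887 protein-coding genes: 6 H1, 17 H2A, 16 H2B, 12 H3 and 12 H4 genes. Mediator occupancy was measured by ChIP-seq (sequencing of the DNA that an antibody brings down with a protein). The cells were E14tg2a, a mouse embryonic stem cell line of 129SV background, in which a cRAF-ErT2 transgene is stably expressed and 4-hydroxytamoxifen (4OHT) activates the RAF kinase and ERK signalling. All cells had spent 24 h in serum medium with LIF and 250 nM PD173074, an inhibitor of FGF receptors, after growth with Chir99021, an inhibitor of the kinase GSK3. They then received 250 nM 4OHT for 2 h (2 h) or none (0 h), and chromatin of clones a and b was precipitated with an antibody to MED1 or, for MED24, with anti-FLAG. The 8 peak lists therefore form 4 groups of 2 clones, and 4 input samples are not analysed here. Since no vehicle-treated and no transgene-free cells were analysed here, the agent, the time in culture and RAF activation cannot be told apart, and a p-value measures only the spread between the clones.

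Most genes of this family lie in clusters, have short transcripts with few or no introns, and are transcribed mainly in S phase, when DNA is copied. Their messages end in a stem-loop bound by SLBP instead of a poly(A) tail, and NPAT, a substrate of cyclin E and CDK2, is their shared coactivator in the nuclear histone locus bodies. Mediator is the large complex that relays signals from bound transcription factors to RNA polymerase II, and MED1 and MED24 are subunits of it. Embryonic stem cells divide fast and spend much of their cycle in S phase.

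By position the members fell into 3 clusters. The proximal cluster of chromosome 13 (chr13:21715711-22043658) held 22 genes in 327.948 kb, from H2bc13 to H2bc11. The distal cluster of chromosome 13 (chr13:23531044-23934913) held 31 genes in 403.87 kb, from H4c8 to H2ac1, and a gap of 1.487385 Mb separates it from the proximal one. The chromosome 3 cluster (chr3:96219885-96270192) held 10 genes in 50.308 kb, from H2ac21 to H2bc18. On chromosome 11 the symbol rule found 0 members, because the histone genes there carry the symbols H2bu2, H2aw and H3f4. The members had a median span of 492 bp, and 58 of 63 spans were at most 1000 bp long. The 5 longer ones, H2bc22, H2bc23, H2bc6, H2bc4 and H2bc21, are all H2B genes, and the annotated span of H2bc6 reaches 37455 bp.

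RefSeq promoter windows of the GRCm38.p6 build were at hand for 58 of the 63 members. The sequences shown here are the 250 bases before the start of 6 genes: H2bc6 and H2bc22, which had a region lost after 4OHT inside the gene span, and H1f2, H2bc3, H3c3 and H1f3, which lay under the highest ranked regions called in every library. H2bc6 has 2 annotated starts, both on the minus strand (start 1, chr13:23585971-23586220, and start 2, chr13:23621095-23621344). The H2bc22 window is chr13:21787238-21787487 on the plus strand. H1f2 (chr13:23738557-23738806), H2bc3 (chr13:23746484-23746733) and H1f3 (chr13:23554782-23555031) also lie on the plus strand, and H3c3 (chr13:23745522-23745771) on the minus strand. Sequences run 5′ to 3′ and end at the base before the start. Capitals mark TATAAA (the TATA box), CCAAT (the box bound by NF-Y), ATTTGCAT (the octamer bound by POU2F1), AAACACA (the H1 box) and TTTCGCGC (an E2F motif), each on either strand.
H2bc6 start 1: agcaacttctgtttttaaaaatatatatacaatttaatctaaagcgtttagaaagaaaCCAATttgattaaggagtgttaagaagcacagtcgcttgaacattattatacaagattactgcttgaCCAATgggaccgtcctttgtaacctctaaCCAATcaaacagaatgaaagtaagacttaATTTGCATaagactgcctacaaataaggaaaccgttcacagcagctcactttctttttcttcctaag
H2bc6 start 2: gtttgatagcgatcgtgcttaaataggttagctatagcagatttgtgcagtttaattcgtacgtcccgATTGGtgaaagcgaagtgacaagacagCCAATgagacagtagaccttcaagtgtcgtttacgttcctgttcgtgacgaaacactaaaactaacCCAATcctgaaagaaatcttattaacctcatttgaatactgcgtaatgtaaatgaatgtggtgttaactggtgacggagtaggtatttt
H2bc22: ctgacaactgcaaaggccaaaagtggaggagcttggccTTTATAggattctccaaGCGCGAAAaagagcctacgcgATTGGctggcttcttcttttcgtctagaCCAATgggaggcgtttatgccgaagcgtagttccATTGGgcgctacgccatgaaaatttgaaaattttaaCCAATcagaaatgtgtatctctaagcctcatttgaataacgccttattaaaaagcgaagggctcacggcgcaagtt
H1f2: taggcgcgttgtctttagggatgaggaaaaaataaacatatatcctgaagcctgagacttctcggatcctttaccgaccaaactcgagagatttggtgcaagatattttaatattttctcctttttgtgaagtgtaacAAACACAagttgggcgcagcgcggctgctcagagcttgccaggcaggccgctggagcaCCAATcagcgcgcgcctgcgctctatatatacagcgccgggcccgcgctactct
H2bc3: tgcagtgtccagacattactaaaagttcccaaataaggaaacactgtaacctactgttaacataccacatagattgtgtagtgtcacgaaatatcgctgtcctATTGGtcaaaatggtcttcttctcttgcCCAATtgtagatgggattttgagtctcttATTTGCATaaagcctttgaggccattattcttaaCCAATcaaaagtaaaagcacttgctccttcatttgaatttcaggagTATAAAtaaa
H3c3: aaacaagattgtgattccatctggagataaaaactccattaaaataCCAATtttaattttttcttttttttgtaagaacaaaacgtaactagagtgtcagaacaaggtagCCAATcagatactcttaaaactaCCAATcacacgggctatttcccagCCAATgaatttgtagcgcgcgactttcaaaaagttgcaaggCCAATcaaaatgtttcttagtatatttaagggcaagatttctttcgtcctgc
H1f3: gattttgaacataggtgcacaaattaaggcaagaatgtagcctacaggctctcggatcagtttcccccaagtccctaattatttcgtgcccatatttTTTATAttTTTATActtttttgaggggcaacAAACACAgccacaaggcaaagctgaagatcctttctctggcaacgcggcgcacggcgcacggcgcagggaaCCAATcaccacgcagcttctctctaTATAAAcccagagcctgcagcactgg

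The letters CCAAT stood in the window of 48 of the 58 members (82.8%), against 39.5% of the 17492 protein-coding genes with a window. They were present in all 6 H1, 17 of 17 H2A, 14 of 14 H2B and 8 of 10 H3 genes, but in 3 of 11 H4 genes. The octamer ATTTGCAT stood in 13 members (22.4%, against 1.80% of all genes), 6 of them H2A and 7 of them H2B genes. In the printed windows it appears in H2bc6 at start 1 and in H2bc3, and not in the other 5. AAACACA stood in 9 members (15.5%, against 6.39% of all genes), among them H1f2, H1f3, H1f4, H1f5 and H1f6. TATAAA stood in 28 (48.3%, against 13.7%) and TTTCGCGC in 7 (12.1%, against 0.423%), the H2bc22 window included. The other motifs searched were TTTGGCGC, in 0 members against 0.595% of all genes, and CCGGAAGT, an ETS motif, in 0 members against 4.26%. The motifs were read on both strands and none of the listed letters is contained in another. These are matches of letters within a fixed window and do not locate bound factors. Among H2A and H2B genes with a window for both partners, 9 pairs were divergent, with starts 164 to 281 bp apart (median 180 bp), so that their windows overlap.

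The first question was how much of the family was occupied in these cells. A peak overlapped the span of 56 of the 63 members (88.9%) in all 4 MED1 libraries, and of the same 56 in all 4 MED24 libraries. Over all protein-coding genes, which are mostly far longer, this held for 53.8% with MED1 and 52.1% with MED24. Among the 1577 genes of at most 1000 bp it held for 5.39% with either protein, and histone genes made up 52 of those 85 genes. All 12 H3 genes, all 12 H4 genes, 5 of 6 H1 genes, 13 of 17 H2A genes and 14 of 16 H2B genes were among the 56.

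The 7 members outside this group fell into 2 kinds. H1f6, H2ac1 and H2bc1, the testis forms of their classes, had peaks over the gene in some libraries only, at percentiles of 0.770 to 53.5. A percentile here is the rank of a peak within its own library, with the strongest peak at 100, by the authors' p-value for MED1 and by their score for MED24. Over H2ac1, MED1 peaks were called at 32.6 at 2 h in clone b only, against 8.11 and 53.5 at 0 h in clones a and b. With MED24 no peak was called over H2ac1 at 2 h, against 51.1 and 0.770 at 0 h, and over the neighbouring H2bc1 peaks stood at 17.0 at 2 h in clone a only, against 30.3 and 0.770 at 0 h. H2bc1 had no assigned MED1 region. No library of either protein had a peak over H2ac18, H2ac23, H2ac24 or H2bc23. Beside H2ac18 a region called in every library began 29 bp (MED1) and 25 bp (MED24) from the gene. H2ac23, H2ac24 and H2bc23 had no assigned region in either protein.

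Near-identical copies bear on these genes. For 9 members the 300 base window (250 before and 50 after the start) shared an unbroken run of at least 100 bases with the window of a member elsewhere. H4c17 and H4c18 shared 285 bases, H2bc23 and H2ac24 233, H3c14 and H3c15 231, H2ac18 and H2ac19 219, and H2ac23 shared 200 with H2ac24. The start lay outside peaks in at least 1 library for 6 of these 9 (H2ac18, H2ac23, H2ac24, H2bc23, H3c14 and H4c17) and for 3 further members, H1f6, H2ac1 and H2bc1. Starts lay under a peak in all 4 libraries for the other 49 of the 58 members (84.5%) in each protein, against 37.3% of all genes with MED1 and 35% with MED24. How the authors treated reads that match several places is not given in the sources used here, and the part of such reads in these values was not tested. The absence of a peak over H2ac18, H2ac23, H2ac24 and H2bc23 is therefore uncertain.

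**Figure D1:**
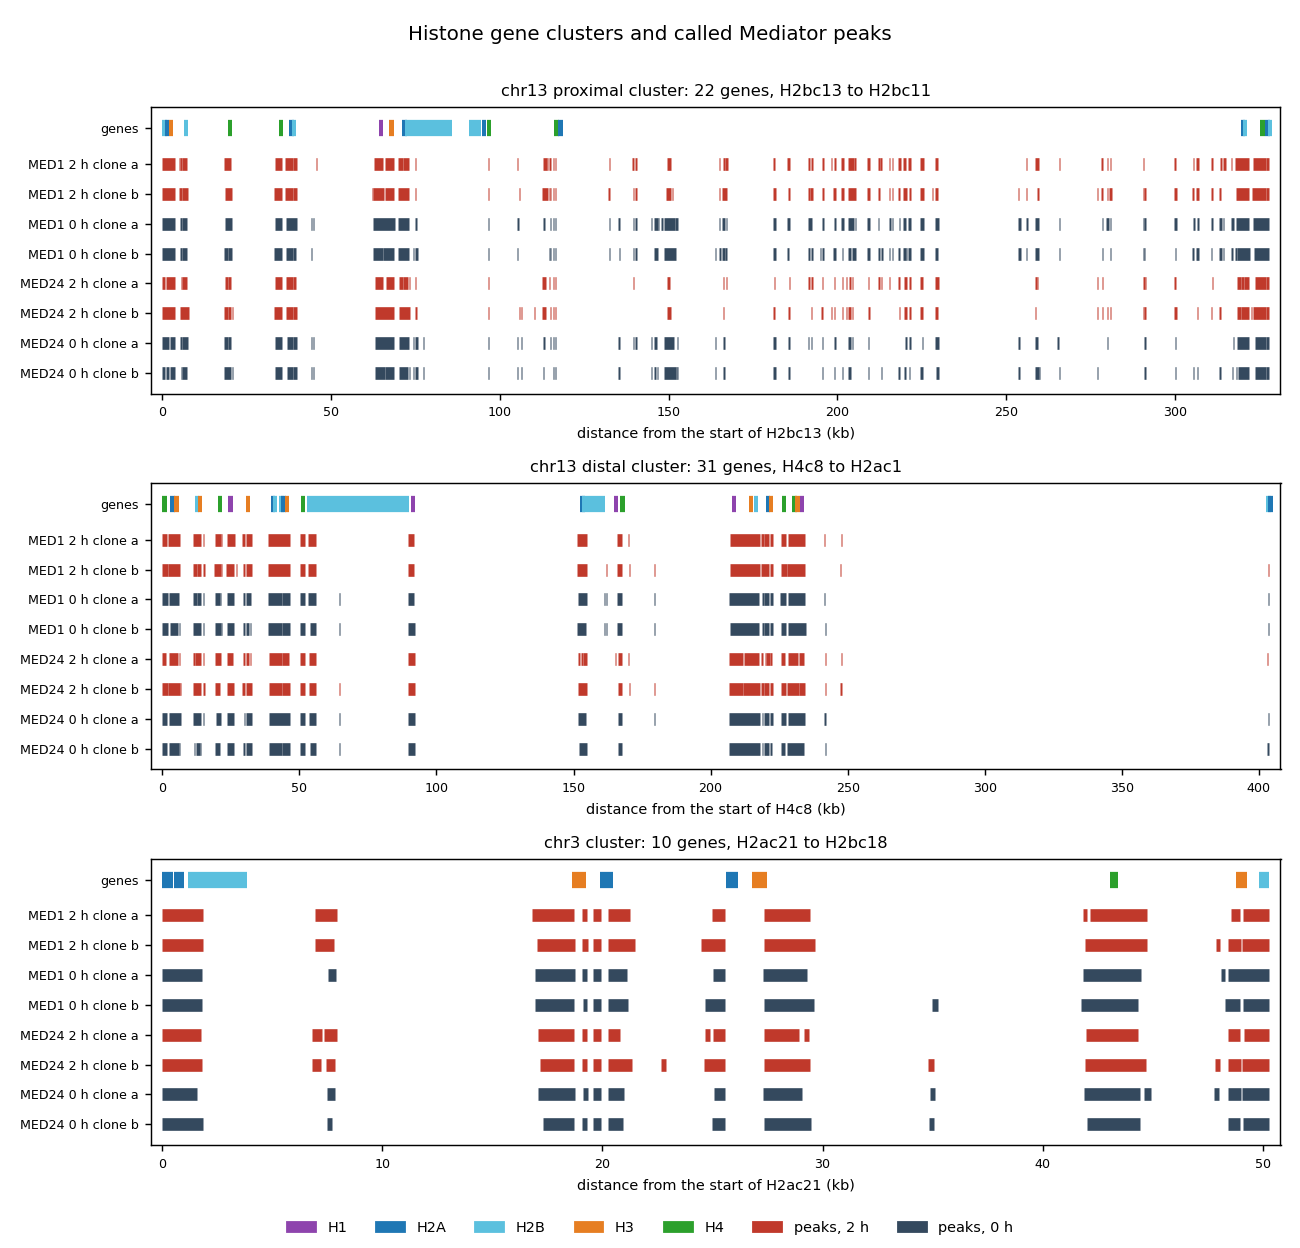
Called peaks of the 8 libraries along the 3 histone gene clusters, with genes in the top row of each panel coloured by class (short genes are drawn wider than their span) and the x axis in kb from the first member. Peaks lie over 56 of the 63 genes in all 8 libraries, while the inner part of the proximal cluster, between H2ac24 and H2ac12, holds scattered narrow peaks.

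To compare treatments, the 4 peak lists of each protein were merged wherever peaks overlapped by at least 1 bp, and a merged region was assigned to its nearest gene span within 100 kb. Members received 76 of 65291 MED1 regions and 82 of 66123 MED24 regions. The farthest lay 16.913 kb (MED1) and 16.899 kb (MED24) from a member, near H4c8, and 43 MED1 and 45 MED24 regions overlapped a member. Histone regions were wide, with a median of 1056 bp for MED1 and 1104 bp for MED24, against 438 and 430 bp over all regions. Of those over members, 16 MED1 and 18 MED24 regions covered at least 2 members. The region over H2ac8, H2bc8, H2bc7, H2ac7 and H3c4 covered 5. Of these 9 divergent H2A and H2B pairs, 7 lay under a shared region called in all 4 libraries of each protein.

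A region was called gained when both 2 h libraries and neither 0 h library held a peak in it, lost in the reverse case, and retained when all 4 libraries did. No test exists for a region, since the lists hold no read counts, and regions that lie together are not replicates. At the histone genes MED1 had 0 gained regions of 76, whereas 17.6% of all MED1 regions were gained. Lost MED1 regions numbered 5 (6.58%), near the 6.9% of all regions, and 53 were retained (69.7%, against 30.9%). MED24 had 2 gained regions of 82 (2.44%, against 16% of all MED24 regions), 8 lost (9.76%, against 8.83%) and 51 retained (62.2%, against 32.6%). Of the regions over a member, 36 of 43 with MED1 (83.7%) and 40 of 45 with MED24 (88.9%) were retained, and 0 were gained with either protein. Among all regions over a gene, 37.9% were retained and 15.5% gained with MED1, and 38.1% and 14.8% with MED24. These counts depend on the clones. Without the 2 h library of clone a, 5 MED1 regions were gained (6.58%, against 27.6% of all regions counted so). Without any 1 of the other libraries, 1 was gained (1.32%, against 19.6% to 24.0%). Lost MED1 regions numbered 8 without either 0 h library (10.5%, against 13.5% with clone a left out and 14.4% with clone b). Gained MED24 regions numbered 8 without the 2 h library of clone a (9.76%, against 27.0%). They numbered 4 without that of clone b (4.88%, against 20.3%) or the 0 h library of clone a (4.88%, against 19.4%). Counted within each clone and averaged (the replicate block, since each clone was sampled at both times), MED1 had 4.5 gained regions (5.92%, against 29.2% of all regions counted so) and 10 lost (13.2%, against 17.7%), and MED24 8 gained (9.76%, against 27.4%) and 12.5 lost (15.2%, against 18.8%).

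**Figure D2:**
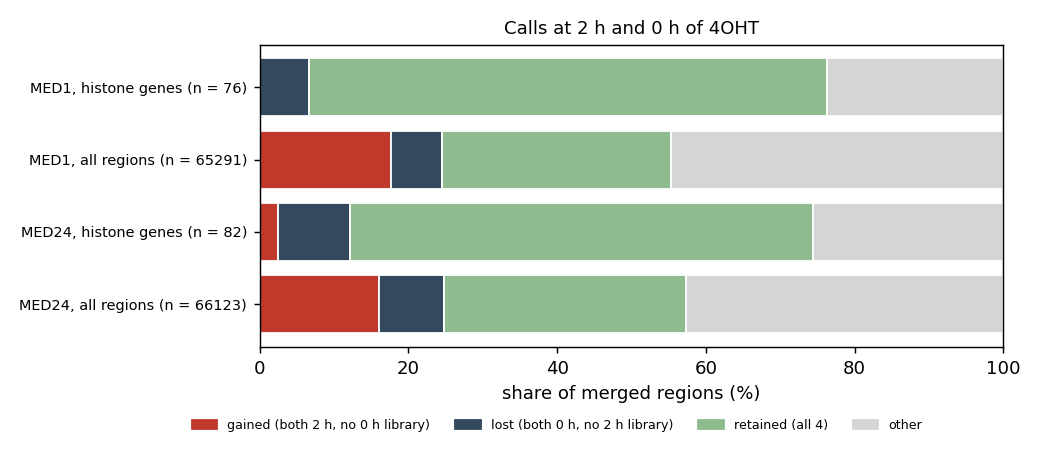
Share of merged regions (%) that were gained, lost, retained or other, for regions assigned to histone genes and for all regions of each protein. Retained regions make up 69.7% (MED1) and 62.2% (MED24) at histone genes, against 30.9% and 32.6% of all regions.

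Gained regions were few in each cluster. In the proximal cluster of chromosome 13, MED1 had 0 gained, 2 lost (6.67%) and 22 retained (73.3%) of 30 regions. MED24 had 1 (2.78%), 6 (16.7%) and 18 (50%) of 36 there. In the distal cluster the counts were 0, 3 (9.09%) and 21 (63.6%) of 33 for MED1. For MED24 they were 0, 2 (6.67%) and 21 (70%) of 30. On chromosome 3 they were 0, 0 and 10 (76.9%) of 13 for MED1, and 1 (6.25%), 0 and 12 (75%) of 16 for MED24. Over all regions the gained, lost and retained shares were 17.6%, 6.9% and 30.9% with MED1. With MED24 these were 16%, 8.83% and 32.6%. The 8 lost regions of MED24 thus include 6 in the proximal cluster and 0 on chromosome 3; with counts this small, and with neighbouring regions, no test of the difference was made. Outside the rule, H2bu2, H2aw and H3f4 on chromosome 11 each had 1 region, retained in both proteins.

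The regions that were called at 1 time only were narrow. The 5 lost MED1 regions were 338 to 682 bp wide. The lost region nearest to H2bc15, an H2B gene, lay 5.184 kb from it (chr13:21759737-21760074) and stood at percentiles of 57.3 and 32.3 at 0 h in clones a and b. Near H2bc11 (chr13:22049805-22050164) they were 51.1 and 48.5. The lost region 16.913 kb from H4c8 (chr13:23513450-23514131) stood at 38.4 and 74.5 and overlapped a MED24 region lost there too. Inside the long span of H2bc6 the lost region (chr13:23595589-23596015) stood at 17.0 and 67.8, and at the edge of H2bc4 (chr13:23692168-23692590) at 35.6 and 25.3. None of the 5 covered one of the printed starts.

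The 8 lost MED24 regions were 281 to 610 bp wide. Next to H2bc15 there were 2, at percentiles of 50.1 and 59.6 (chr13:21759655-21760040) and of 49.3 and 22.3 (chr13:21760282-21760682) at 0 h in clones a and b. Inside the span of H2bc22 there were also 2, at 52.5 and 52.0 (chr13:21790012-21790355) and at 67.0 and 29.7 (chr13:21792797-21793077). The region near H4c17 (chr13:21820747-21821085) stood at 39.3 and 16.9, and that near H2ac12 (chr13:22032604-22033189) at 43.4 and 16.0. Near H4c8 there were 2, of which the stronger (chr13:23513536-23514145) stood at 74.6 and 74.9 and the weaker (chr13:23515880-23516222) at 16.9 and 1.27. The 2 gained MED24 regions ranked low at 2 h, at 9.13 and 36.4 near H2ac12 (chr13:22026406-22026829, 8.293 kb away) and at 17.0 and 41.0 near H2bc21 (chr3:96226698-96227148, 2.96 kb away). Across the proteins, 46 of the 53 retained MED1 regions overlapped a retained MED24 region, and 50 of the 51 retained MED24 regions overlapped a retained MED1 region. Of the lost regions, 2 of 5 with MED1 overlapped a lost MED24 region, and 2 of 8 with MED24 overlapped a lost MED1 region.

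Within the libraries the histone regions ranked high. The median percentile over the 53 retained MED1 regions was 94.8 and 95.2 at 2 h in clones a and b, against 96.2 and 96.6 at 0 h. Over the 51 retained MED24 regions it was 93.8 and 94.8 at 2 h, against 96.7 and 95.8 at 0 h. All retained regions of a protein had medians of 64.6 to 71.5 in the 8 libraries. A mean percentile of 90 or above was reached by 36 of the 53 MED1 regions (67.9%, against 12.4% of all retained regions) and by 33 of the 51 MED24 regions (64.7%, against 11.1%). By class, the H1 genes with a peak in every library stood highest with MED1, at medians of 99.0 and 99.0 at 2 h against 99.8 and 99.8 at 0 h. The H3 genes had MED1 medians of 97.3 and 98.4 at 2 h against 98.6 and 98.5 at 0 h, and the H4 genes 97.4 and 97.7 against 98.8 and 98.9. With MED24 the H1 genes had medians of 97.3 and 97.6 at 2 h against 99.2 and 99.2 at 0 h, and the H4 genes 98.0 and 97.6 against 98.6 and 98.2, so H1 was not the highest class there at 2 h.

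**Figure D3:**
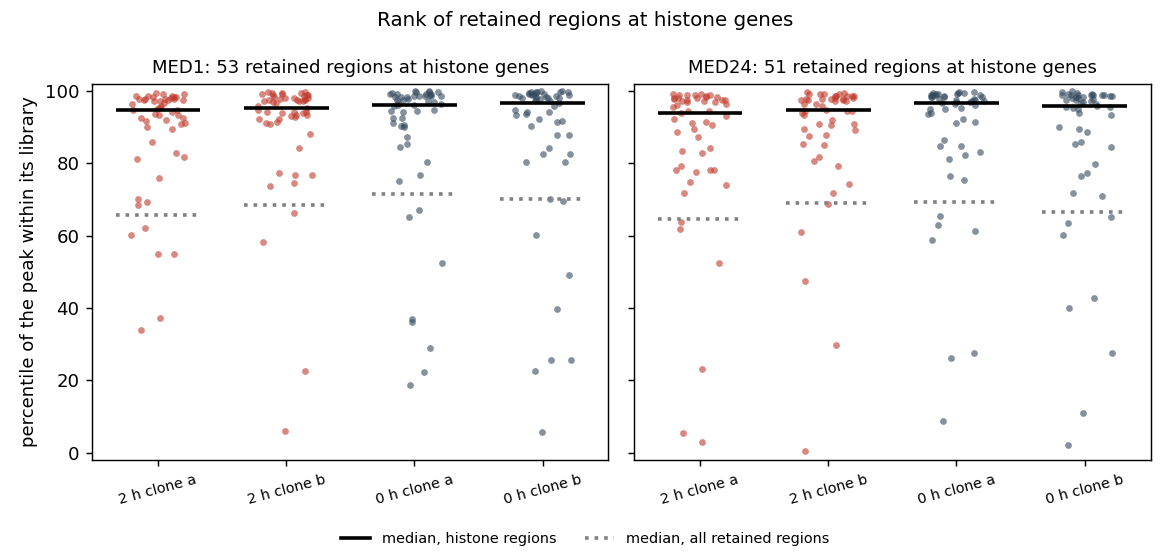
Percentile of each retained histone region within its library (y axis; points are regions, the black line their median and the dotted line the median of all retained regions) in the 4 libraries of each protein. The histone medians lie between 93.8 and 96.7 in all 8 libraries, above the medians of all retained regions.

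The highest ranked MED1 region (chr13:23737889-23749223) was 11335 bp wide and covered H1f2, a linker histone gene, H3c3 and H2bc3, whose windows are printed above. Its fold enrichment, the authors' own value per peak, was 25.2 and 30.9 at 2 h in clones a and b, against 52.1 and 49.1 at 0 h. The matching MED24 region (chr13:23737889-23749188) had scores of 1950 and 2442 at 2 h, against 3742 and 3805 at 0 h. In both proteins this locus stood at a percentile of 98.7 or above in every library, and both 2 h libraries lay below both 0 h libraries.

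Other H1 and H3 genes followed closely. The region of H1f3 (chr13:23554240-23557644) had MED1 folds of 20.8 and 26.4 at 2 h, against 23.9 and 34.0 at 0 h, so that the groups overlapped by fold, whereas their percentiles, 99.2 and 99.5 against 99.8 and 99.8, did not. The region of H1f5 and H3c11 (chr13:21778192-21784603) had folds of 18.2 and 19.4 at 2 h, against 41.5 and 24.7 at 0 h. At H3c6 (chr13:23561663-23563900) the folds overlapped, with 20.9 and 41.3 at 2 h against 38.4 and 35.5 at 0 h. At H4c1, H3c1 and H1f1 (chr13:23758768-23765677) they were 28.7 and 22.3 at 2 h, against 33.8 and 37.0 at 0 h, and did not overlap. At H4c9, H2ac11 and H2bc11 (chr13:22038568-22044792), the highest ranked histone region of the proximal cluster, they were 19.5 and 35.1 at 2 h, against 19.1 and 34.2 at 0 h, with the clones further apart than the times. The other 4 of the 10 highest ranked MED1 regions lay at H4c6, H4c12, H4c14 on chromosome 3, and the pair H2ac15 and H2bc15, at mean percentiles of 98.5 to 98.8. A fold depends on the library it was called in, so only its order between clones and times is described.

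MED24 shared most of its 10 highest ranked regions with MED1, in a different order. Its highest ranked histone region (chr13:22038937-22042683) covered H4c9 and H2ac11, with scores of 2116 and 3367 at 2 h in clones a and b, against 2647 and 2778 at 0 h. H1f3 (chr13:23554465-23557231) had scores of 1943 and 2011 at 2 h, against 2966 and 2892 at 0 h, and the groups did not overlap. The region over H2ac8, H2bc8, H2bc7, H2ac7 and H3c4 (chr13:23569819-23577701) had scores of 2199 and 2674 at 2 h, against 2503 and 1906 at 0 h, so here the groups overlapped. H2ac6 with H2bc4, H4c6, H4c12, H3c6, H4c14, and H4c1 with H3c1 and H1f1 completed the 10, at mean percentiles of 98.3 to 98.9. Of the 10 highest ranked MED1 regions, 8 overlapped one of these.

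Set against 0 h, retained histone regions stood slightly lower in rank at 2 h. The median difference, 2 h minus 0 h within each clone and averaged, was -0.68 percentile points over the 53 MED1 regions, at -0.74 in clone a and -0.19 in clone b, and -3.24 over all retained MED1 regions. Over the 51 MED24 regions it was -0.76, at -1.89 in clone a and -0.35 in clone b, and -0.35 over all. Without pairing the clones the differences were -1.28 for both proteins, and leaving out the clone b library at 2 h gave -1.35 for MED24. The means over the MED1 and the MED24 regions were 2.40 and 0.281, of the opposite sign to the medians, and a few regions stood far higher at 2 h. Most regions moved little: 34 of 53 MED1 regions (64.2%) differed by at most 5 points in both clones, against 12.3% of all retained regions, and 28 of 51 MED24 regions (54.9%), against 10.9%. A region near the top of a list has little room above it.

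Both 2 h libraries lay below both 0 h libraries at 20 of the 53 MED1 regions (37.7%), near the 37% of all retained regions, and above them at 7 (13.2%, against 20.2%). For MED24 the counts were 25 of 51 below (49.0%, against 32%) and 5 above (9.80%, against 29.5%). Since high ranks are more often lower at 2 h in all regions, the same was counted at a mean percentile of 90 or above. There 19 of 36 MED1 regions (52.8%) were below, against 51.3% of all such regions, and 0 were above, against 17.3%. With MED24 18 of 33 (54.5%) were below, against 43.3%, and 1 was above (3.03%), against 32.4%, namely H4c3. The shares below were thus close to the background for MED1 among regions of like rank, and no test was made of these differences. Of the 20 MED1 regions that lay below, all 20 covered a member, and of the 25 MED24 regions 23 did. Of all retained histone regions, 36 of 53 with MED1 and 40 of 51 with MED24 covered a member. A mean percentile of 90 or above was reached by 32 of these 36 and 32 of these 40. The part of rank in these counts was not tested.

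At the top of the lists the peaks at histone genes were fewer at 2 h. Among the 1000 highest ranked MED1 peaks of each library, 12 and 16 lay at histone genes at 2 h in clones a and b, against 23 and 26 at 0 h. The means were 14 ± 2.83 at 2 h and 24.5 ± 2.12 at 0 h (SD, n = 2 each), a difference of -10.5. An exact two-sided permutation test that leaves the clones unpaired gave p = 0.333. A design of 2 against 2 libraries allows no smaller p. With the clones paired, an exact sign-flip test gave p = 0.5 with MED1 and with MED24, the smallest that 2 pairs allow. Among the 1000 highest ranked MED24 peaks there were 13 and 14 at 2 h, against 19 and 20 at 0 h, with means of 13.5 ± 0.707 and 19.5 ± 0.707 (SD, n = 2 each), a difference of -6 and the same exact p = 0.333. The 2 h libraries lay below the 0 h libraries in both clones of both proteins. Of the 500 highest ranked peaks, 3 and 9 with MED1 lay at histone genes at 2 h, against 11 and 18 at 0 h, and 3 and 6 with MED24, against 12 and 12. Of the 2000 highest ranked, there were 23 and 30 with MED1 at 2 h, against 31 and 33 at 0 h, and 25 and 26 with MED24, against 29 and 33. The count of highest ranked peaks was chosen after the data had been seen, and the 2 h lists held more peaks in all (43949 and 47305 with MED1, against 38668 and 37483 at 0 h, and 42445 and 48931 with MED24, against 41689 and 38398). The part of list length in these counts was not tested. Histone peaks made up 0.159% and 0.150% of the whole MED1 lists at 2 h, against 0.191% and 0.205% at 0 h. With MED24 these shares were 0.188% and 0.153%, against 0.180% and 0.208%. Lower rank at 2 h was not particular to histone genes. Among all retained regions at a mean percentile of 90 or above, it held for 51.3% with MED1 and 43.3% with MED24. The top counts were not compared with those of other genes.

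**Figure D4:**
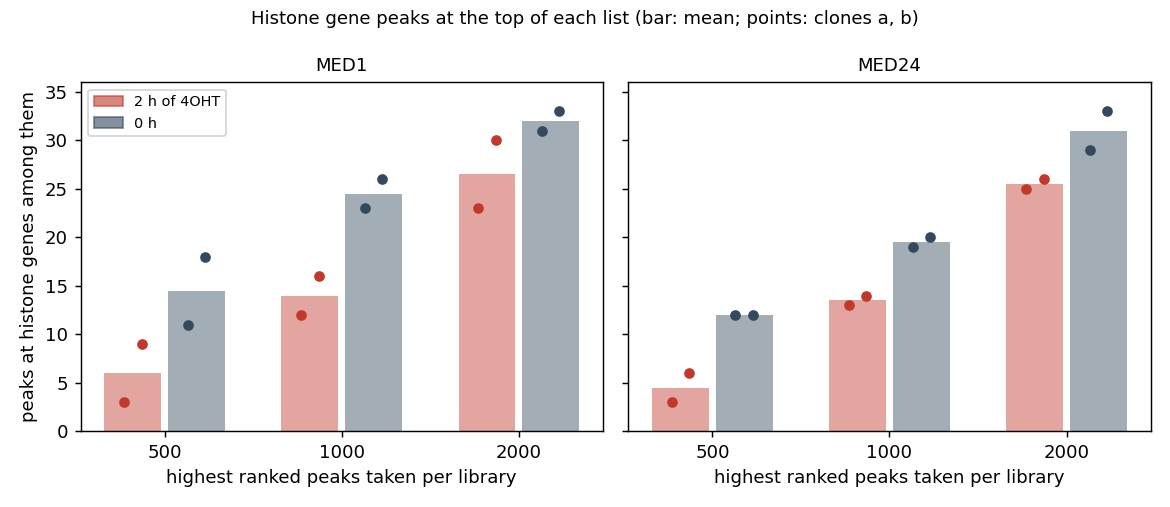
Number of peaks at histone genes among the 500, 1000 and 2000 highest ranked peaks of each library (bars are means and points the clones a and b; 2 h left of 0 h). Both 2 h points lie below both 0 h points at each of the 3 depths of the list in both proteins, for example 12 and 16 against 23 and 26 for MED1 at 1000.

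The number of bases covered at histone genes differed between the times by less than between the clones of the 2 h groups. MED1 libraries held 70 and 71 peaks at histone genes at 2 h, against 74 and 77 at 0 h (exact permutation p = 0.333, n = 2), and MED24 libraries 80 and 75 at 2 h, against 75 and 80 at 0 h (exact permutation p = 1, n = 2). MED1 peaks covered 126.161 ± 4.59 kb at 2 h and 123.672 ± 0.197 kb at 0 h (SD, n = 2 each), with clone differences of -0.618 kb (a) and 5.60 kb (b) and an exact permutation p = 1. The MED24 lists covered 113.661 ± 11.5 kb at 2 h and 113.574 ± 1.43 kb at 0 h (SD, n = 2 each), with clone differences of -9.04 kb (a) and 9.22 kb (b) and an exact permutation p = 1. As a share of all bases covered in a library, histone regions took 0.494% and 0.472% with MED1 at 2 h, against 0.522% and 0.540% at 0 h. With MED24 the shares were 0.471% and 0.457% at 2 h, against 0.502% and 0.540% at 0 h (exact permutation p = 0.333 for each protein, n = 2). Neither pair of groups overlapped in this share. The lists covered 24.9 and 27.4 Mb in all with MED1 at 2 h, against 23.7 and 22.9 Mb at 0 h. With MED24 the totals were 22.4 and 26.6 Mb at 2 h, against 22.8 and 20.8 Mb at 0 h. The part of these totals in the shares was not tested. A peak lay within 1 kb of 59 and 61 members at 2 h, against 61 and 61 at 0 h, with MED1. For MED24 these were 61 and 59 at 2 h, against 61 and 61 at 0 h. For a cluster as a whole, all peaks inside its span were counted, those nearest to other genes such as Zfp184 included. The part of such peaks in the cluster values was not tested. Peaks covered 26.7% and 29.0% of the chromosome 3 cluster in the MED1 libraries at 2 h, against 25.3% and 26.0% at 0 h, and 18.6% and 19.4% of the proximal chromosome 13 cluster, against 20.5% and 20.4% (exact permutation p = 0.333 for each, n = 2). In the MED24 libraries the groups overlapped: peaks covered 24.4% and 28.2% of the chromosome 3 cluster at 2 h, against 24.7% and 23.6% at 0 h, and 13.2% and 15.5% of the proximal cluster, against 15.4% and 15.6% (exact permutation p = 0.667 for each, n = 2). Of the distal cluster, peaks covered 15.4% and 16.3% with MED1 at 2 h, against 15.3% and 15.4% at 0 h (exact permutation p = 0.333, n = 2). With MED24 they covered 13.9% and 15.6% of it at 2 h, against 14.8% and 14.3% at 0 h (exact permutation p = 1, n = 2).

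Averaged over the clones, the largest difference at a retained histone region lay in both proteins beside H4c18, an H4 gene of the proximal cluster. The MED1 region there (chr13:21828199-21830088, 1.704 kb from the gene) stood at percentiles of 98.7 and 98.3 at 2 h in clones a and b, against 22.3 and 22.7 at 0 h. Its fold enrichment was 23.0 and 17.9 at 2 h, against 3.71 and 3.26 at 0 h. With MED24 the region (chr13:21828203-21829375) stood at 99.3 and 99.1 at 2 h, against 58.8 and 60.1 at 0 h, with scores of 2418 and 2429 against 148 and 156. In both clones and both proteins the 2 h value was the higher. The peak over H4c18 itself (chr13:21831978-21832347 in MED1) showed no such difference, with MED1 percentiles of 93.6 and 97.2 at 2 h, against 94.7 and 98.2 at 0 h. Another MED1 region 0.832 kb from the gene (chr13:21830142-21830960) stood at 54.9 and 73.7 at 2 h, against 36.8 and 25.7 at 0 h. The MED24 region at this place was called at 9.90 and 25.3 at 2 h, against 16.1 at 0 h in clone a, where it was thus lower at 2 h, and not in clone b. Nearest gene is a matter of distance only, and H4c18 is not shown to be the target of these regions.

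Other places had higher ranks at 2 h in both clones. Beside H3c7, an H3 gene, a MED1 region 0.771 kb away (chr13:23545725-23546549) stood at 62.0 and 76.8 at 2 h, against 29.0 and 25.7 at 0 h; MED24 called the place in 3 libraries. Over H2bc14 the MED1 region (chr13:21721655-21723322) stood at 92.6 and 94.2 at 2 h, against 84.5 and 70.1 at 0 h, and a region 0.514 kb away at 70.0 and 58.2, against 52.3 and 49.0. With MED24 the H2bc14 region (chr13:21721062-21723536) stood at 82.7 and 89.4 at 2 h, against 82.2 and 76.4 at 0 h. Near H2ac4 a MED24 region 0.665 kb away (chr13:23749295-23750423) stood at 94.5 and 97.5 at 2 h, against 65.5 and 71.8 at 0 h. The MED1 region that overlaps that place is wider, covers H2ac4 and H3c2 (chr13:23749262-23752540), and was lower at 2 h. Its percentiles were 94.8 and 97.7 at 2 h, against 98.7 and 98.1 at 0 h. Near H2bc21 on chromosome 3 a MED24 region 3.494 kb away (chr3:96227232-96227828) stood at 77.7 and 68.6, against 62.8 and 39.9. Another MED24 region of this kind lay over H4c3 (chr13:23697154-23698829), at 96.9 and 98.0 against 96.3 and 96.8, a small difference. Of these 10 regions, 5 per protein, 7 lay beside a histone gene and not over it. They were picked by their differences, and regions over a gene mostly ranked high, so the place was not tested.

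Of the 10 regions with the largest lower ranks at 2 h, 5 per protein, 8 lay over a gene. Among all retained histone regions, 36 of 53 with MED1 and 40 of 51 with MED24 did. Inside H2bc22 a MED1 region (chr13:21790503-21791580) stood at 60.2 and 66.2 at 2 h, against 91.1 and 80.2 at 0 h, and the matching MED24 region at 74.1 and 81.8, against 93.5 and 88.6. The shared promoter of H2ac22 and H2bc22 (chr13:21785423-21788916), which holds the printed H2bc22 window, had MED1 percentiles of 95.9 and 95.8 at 2 h, against 99.1 and 99.7 at 0 h. On chromosome 3, 2 MED1 regions over H2ac19 stood at 94.0 and 92.8, against 97.0 and 97.9, and at 95.2 and 97.1, against 97.5 and 98.7. At H4c14 the MED1 values were 97.5 and 97.9 at 2 h, against 99.1 and 99.4 at 0 h. With MED24, H3c14 (chr3:96247199-96249363) stood at 71.7 and 85.3 at 2 h, against 91.3 and 95.7 at 0 h. Its near copy H3c15 (chr3:96238968-96239208) stood at 63.7 and 71.9, against 76.4 and 77.2. That H3c15 region of 241 bp has the same first and last base in both proteins, and reads from H3c14 and H3c15, or from H2ac19 and H2ac18, may not be told apart. A MED24 region 0.088 kb from H4c18 (chr13:21831467-21831704) stood at 61.8 and 47.5, against 75.3 and 65.1.

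**Figure D5:**
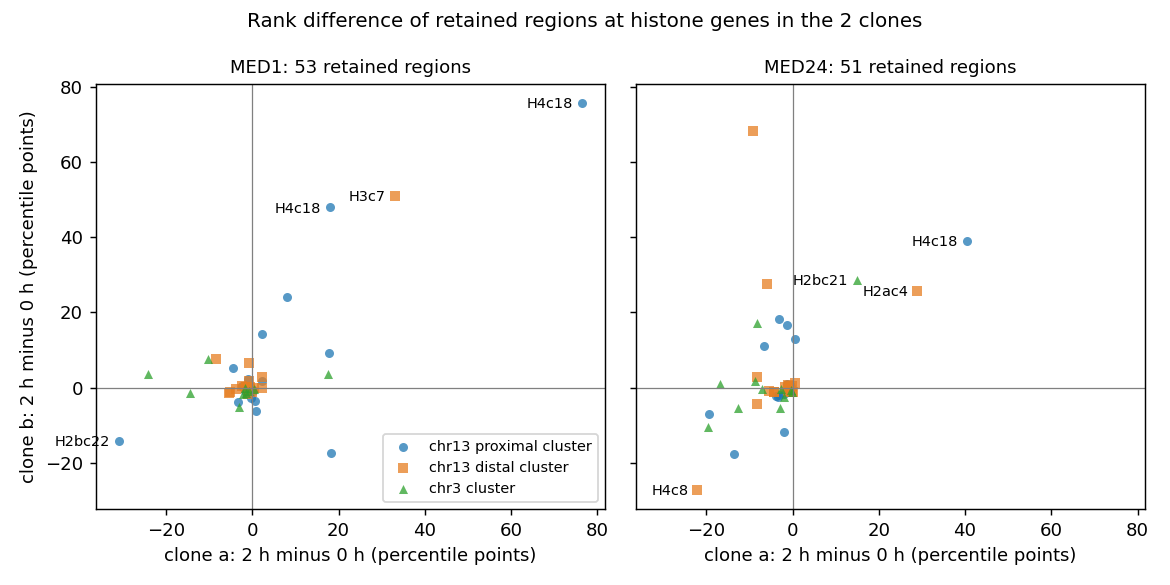
Percentile difference (2 h minus 0 h, in points) of each retained histone region in clone a (x axis) and clone b (y axis), for MED1 and MED24, with the clusters as symbols and the widest differences named by their nearest gene. Most regions lie near 0 in both clones, while the region beside H4c18 stands at 76.4 and 75.6 points with MED1 and at 40.4 and 39.0 with MED24.

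Beside H4c8, at the edge of the distal cluster, overlapping regions of the 2 proteins differed in rank. A MED24 region 12.641 kb away (chr13:23517186-23518403) stood at 5.53 and 0.549 at 2 h, against 27.6 and 27.7 at 0 h. The MED1 region that overlaps it (chr13:23516929-23519896) stood at 94.9 and 92.3 at 2 h, against 92.6 and 92.3 at 0 h. That MED1 region is 2968 bp wide, against 1218 bp for MED24, and holds 2 peaks in most libraries. A region takes its strongest peak, so the MED1 values may come from bases outside the MED24 region. This MED1 region was picked after its values had been seen, and ranks of different proteins come from lists made separately, so the difference was not tested. Over H4c8 itself the MED24 values were 98.2 and 97.2 at 2 h, against 98.3 and 98.4 at 0 h.

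Genes of the pathway and neighbours were counted in the same way. The replication-independent histones, which are made outside S phase too, had 41 MED1 regions with 2 gained (4.88%), 5 lost (12.2%) and 20 retained (48.8%), over 11 of 12 listed genes. Their 37 MED24 regions held 2 gained (5.41%), 4 lost (10.8%) and 19 retained (51.4%). Both retained shares lay between those of the replication-dependent genes and those of all regions. H3f3b, an H3.3 gene, stood at MED1 percentiles of 99.7 and 99.7 at 2 h, against 99.8 and 99.8 at 0 h. H2az1 had 1 gained region in each protein, and Macroh2a1 had 1 gained and 3 lost with MED1. Regulators of histone transcription and 3′ end processing, 21 of 22 listed genes, had 51 MED1 regions with 10 gained, 4 lost and 25 retained, and 57 MED24 regions with 7, 3 and 27. That is 19.6% gained with MED1 and 12.3% with MED24, near the 17.6% and 16% of all regions. Lost shares were 7.84% and 5.26%, against 6.9% and 8.83% of all regions. The retained shares, 49.0% and 47.4%, lay above the 30.9% and 32.6% of all regions. Ccne1, which encodes cyclin E1, had 3 gained with MED1 and 2 with MED24, and Pou2f1, the octamer factor, 3 with each. Npat, Casp8ap2 and Slbp had 1 retained region each in both proteins and 0 gained or lost.

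The 10 other protein-coding genes inside the clusters had 51 MED1 regions with 1 gained (1.96%, against 17.6% of all), 2 lost (3.92%, against 6.9%) and 32 retained (62.7%, against 30.9%). Their 50 MED24 regions held 2 gained (4.00%, against 16%), 8 lost (16.0%, against 8.83%) and 16 retained (32%, near the 32.6% of all). Zfp184, a zinc finger gene of the proximal cluster, had 21 of these MED1 regions, 16 of them retained. H4bc24 carries a histone-like symbol that falls outside the rule. It had 12 MED24 regions with 6 lost and 2 retained, and thus 6 of the 8 lost MED24 regions of the list. Its 11 MED1 regions held 2 lost and 6 retained. Slc17a1, Slc17a3 and Slc17a4 in the distal cluster had 0 regions in either protein. As a check of the cell type, all 7 embryonic stem cell markers had regions in both proteins and peaks over the gene in all 8 libraries. Of their 118 MED1 regions 12 were gained (10.2%, against 17.6% of all), 20 lost (16.9%, against 6.9%) and 39 retained, and of their 115 MED24 regions 13 were gained (11.3%, against 16%), 20 lost (17.4%, against 8.83%) and 39 retained. With MED1, Pou5f1 stood at percentiles of 97.5 and 98.0 at 2 h, against 99.1 and 99.5 at 0 h, and Nanog at 59.5 and 66.4, against 93.1 and 94.6. Klf4 stood at 90.8 and 87.4 at 2 h, against 98.8 and 98.8 at 0 h. Zfp42, of the same list, did not differ in this way, with MED1 percentiles of 97.8 and 97.5, against 97.8 and 97.8. With MED24 it stood at 99.0 and 99.0 at 2 h, against 99.1 and 98.9 at 0 h. It had 5 gained regions and 1 lost with MED1, and 5 gained and 0 lost with MED24. The 7 fibroblast markers had 12 MED1 regions, 5 gained (41.7%, against 17.6%), 0 lost and 1 retained, and 14 MED24 regions, 3 gained (21.4%, against 16%), 1 lost and 2 retained. Over Twist1, peaks were called at 2 h only, at MED1 percentiles of 81.6 and 85.0 and MED24 percentiles of 92.8 and 94.7. Over Twist2 they were also called at 2 h only, at 78.5 and 80.8 with MED1 and at 79.5 and 82.9 with MED24, while Postn had no region. At 0 h, peaks over these 7 genes were called only at Thy1 (MED1, clone b) and Col1a1 (MED24, clone a). The part of these differences in the histone values was not tested.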

How the data were processed

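MED1 and MED24 ChIP-seq peaks were analysed in 8 libraries, 2 clones at 2 h and at 0 h of 4OHT for each protein; groups came from the sample titles. Bowtie2, bedtools, MACS2 and the mm10 build are named, without versions or settings, in the submitters' processing notes. Each deposited list holds the peaks of 1 library. Per peak, the deposited MED1 lists hold the authors' score, their fold over background as a ratio, their −log10 p-value and their −log10 q-value. For MED24 the authors deposited positions, names and a score whose meaning is not stated; the MED1 score equals the truncated −log10 q-value times 10 in 100% of peaks. MED24 peak names carry FLAG and the name of another cofactor, EP300, and the labels' MED24 was followed. The lists hold no read numbers, so the depth is unknown and the number of clones limits the precision. The lowest score was 20 in each list.

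With Python 3.11.15, pandas 2.3.3 and numpy 2.4.6, peaks were merged per protein (overlap of at least 1 bp) and assigned to the nearest protein-coding gene span within 100 kb. Gene spans and promoter windows came from RefSeq tables of GRCm38.p6, which names the same build as mm10. Percentiles rank the peaks of a library, MED1 by −log10 p and MED24 by score, and a region takes its strongest peak. Exact permutation tests (two-sided) compared values per library, with the clones unpaired unless stated. The merging, the calls of gained, lost and retained regions and the assignment to genes were checked on simulated lists. The permutation tests were not checked in this way. The clones pair the libraries: each clonal line was sampled at both times. Deviations of a clone's percentiles from the group means at retained histone regions correlated between the times at 0.149 for MED1 and -0.119 for MED24. Named regions are all gained and lost ones, the 10 highest ranked retained regions, and the 5 per protein that differed most in each direction by the smaller of the clones' differences. Members and lists were chosen with earlier results of these data known. Of the listed genes, Symplk and H3f5 were not found by symbol. Alternatives were stricter scores, the 20000 or 10000 highest ranked peaks, a minimum overlap of 25%, assignment within 20 kb or 1 kb, ranks by fold, means, single libraries left out and the replicate block.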

Additional observations from a re-analysis of the deposited data

How the results depend on the processing

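Over all alternatives, 109 values kept the direction of the main value, lay within 1.5 times of a count or differed by less than the SD between clones, and 38 did not. Retained counts stayed within 1.5 times under every alternative run. The difference of -10.5 MED1 peaks among the 1000 highest ranked was -5.5 among 2000, in the same direction. Taking only peaks with a score of at least 100 gave 4 gained and 1 lost MED1 region, and 1 gained and 3 lost MED24 regions. The 20000 highest ranked peaks gave the same counts. With the 10000 highest ranked these were 1 and 1 for MED1, and 1 MED24 region was lost. The shares of all regions under these settings were not computed. Within 1 kb of a gene, 2 MED1 regions were lost, and 0 MED24 regions were gained and 2 lost. Leaving out 1 library gave 1 to 5 gained and 6 to 8 lost MED1 regions and 2 to 8 gained and 8 to 12 lost MED24 regions. Gained shares were 1.32% to 6.58% with MED1, against 19.6% to 27.6% of all regions, and 2.44% to 9.76% with MED24, against 18.1% to 27.0%. Lost shares were 7.89% to 10.5% with MED1, against 9.02% to 14.4%. With MED24 they were 9.76% to 14.6%, against 10.4% to 16.6%, and lay above those of all regions only without a 2 h library. With the replicate block (counts within each clone, averaged) gained and lost regions numbered 4.5 and 10 for MED1 and 8 and 12.5 for MED24. It changed no other call. With the clones so paired, the exact sign-flip p for MED1 peaks per library was 0.5. The difference in MED1 peaks per library, -5, became 2 at a score of at least 100 and with 20000 peaks. Covered sequence differed by 2.49 kb with MED1 (-0.7575 to 5.7375 kb with 1 library left out) and by 0.0875 kb with MED24 (-8.03 to 8.205 kb). The number of members with a peak within 1 kb differed by -1 (-2 to 0 with 1 library left out, in each protein) and, for MED24 with 20000 peaks, by 0. The MED1 percentile difference of -0.68 was 2.40 as a mean over regions, -1.28 with no replicate block, and -0.879 to -0.12 with 1 library left out; that of MED24, -0.76, was 0.281 as a mean, -1.28 with no replicate block and -1.35 when the clone b library at 2 h was left out. Ranks by fold were not run for MED24, whose lists hold none. The cause of these changes was not tested. With 2 clones per group no p under 0.333 was possible, and without read numbers the precision of a single peak is unknown.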
